A study of Mus musculus with 6 samples.

Results

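The 9 genes described here encode the core scaffold proteins of the excitatory postsynaptic density: Shank1, Shank2, Shank3, Dlg1, Dlg2, Dlg3, Dlg4, Dlgap1 and Dlgap2. Their rows were selected by gene symbol, from a list drawn up with earlier results of these data known, and all 9 were found among the 22000 symbols of the count table. All 9 also passed the filter on low values, which kept 13185 genes. RNA-seq was carried out on the prefrontal cortex (PFC) of male C57BL/6N mice at 9 weeks of age, with 1 library per mouse, 3 control mice and 3 mice exposed to early life stress (ELS). ELS mice were housed alone under a filter cap from weaning at P21, with P50 as the end of the isolation period, whereas controls shared a cage of 4 with no such cap. Both groups came from litters that shared a mother, and the study's methods state that housing was maintained through the behavioural tests up to dissection at P67, without saying whether the sequenced mice had been tested. Each library is from a separate mouse, so the p-values measure the spread between mice. The study's methods do not say whether the sequenced controls came from the same cage, so the spread between control cages is not known. Isolation and filter cap went together in every ELS mouse, so their effects cannot be told apart. The comparison asks whether social isolation after weaning altered the expression of these scaffold genes in the PFC.

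Excitatory synapses in the cortex sit mostly on dendritic spines, where glutamate receptors are held opposite the release site by a dense protein meshwork. Dlg proteins (SAP97, PSD-93, SAP102 and PSD-95, from Dlg1 to Dlg4) are membrane-associated guanylate kinases that bind the tails of NMDA receptors, potassium channels and adhesion molecules through their PDZ domains. Dlgap proteins (GKAP or SAPAP) bind the guanylate kinase-like domain of Dlg proteins and, with their own tails, the PDZ domain of Shank proteins. Shank proteins form the deeper layer and connect to Homer, to metabotropic glutamate receptors and to the actin cytoskeleton. Variants of several of these genes, SHANK3 above all, are known in autism and intellectual disability.

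In GENCODE M21 (GRCm38, the assembly also named mm10), the 9 genes lie on 7 chromosomes and all are on the plus strand. Shank1 lies at chr7:44310253-44360572, Shank2 at chr7:144001928-144424494 and Shank3 at chr15:89499623-89560261. Dlg1 lies at chr16:31663443-31875129, Dlg2 at chr7:90476672-92449247, Dlg3 at chrX:100767722-100818410 and Dlg4 at chr11:70016942-70047522. Dlgap1 lies at chr17:69969073-70821413 and Dlgap2 at chr8:14095865-14847680. Dlg2 spans 1972.6 kb and Dlg4 only 30.6 kb. Antisense genes cover 3.22% of the exon bases of Shank1 (a coding gene), 2.95% of those of Shank3 and 0.514% of those of Dlgap1 (both noncoding), and reads there cannot be assigned with certainty because the strand setting is not known. Other gene models on the same strand cover 1.38% of the exon bases of Dlg2, where strand could not separate the reads. No run of 151 bases, the read length, was shared between transcripts of different members, so full-length reads from these paralogs differ in sequence. Shorter runs, as in trimmed reads, were not compared.

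RefSeq promoter sequences (GRCm38.p6) were at hand for 6 of the 9 genes: Shank3, Dlg1, Dlg2, Dlg3, Dlg4 and Dlgap1. The 250 bases before the most upstream listed start are shown for Shank3, Dlgap1 and Dlg1. They were picked because the transcripts of Shank3 and Dlgap1 varied together between mice (Pearson r = 0.791, n = 6) and that of Dlg1 did not (values follow). All are written 5′ to 3′ on the plus strand, with the GC box (GGGCGG on either strand, read as CCGCCC on the other) in capitals. The windows of Dlg2, Dlg3 and Dlg4 start inside the GENCODE gene and are not shown. The windows are chr15:89499358-89499607 for Shank3, chr17:69968823-69969072 for Dlgap1 and chr16:31663193-31663442 for Dlg1.
Shank3: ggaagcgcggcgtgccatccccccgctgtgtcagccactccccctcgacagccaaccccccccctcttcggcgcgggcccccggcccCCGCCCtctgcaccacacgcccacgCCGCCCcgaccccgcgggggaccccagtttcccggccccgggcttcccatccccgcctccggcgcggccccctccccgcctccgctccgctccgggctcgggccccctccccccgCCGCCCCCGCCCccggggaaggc
Dlgap1: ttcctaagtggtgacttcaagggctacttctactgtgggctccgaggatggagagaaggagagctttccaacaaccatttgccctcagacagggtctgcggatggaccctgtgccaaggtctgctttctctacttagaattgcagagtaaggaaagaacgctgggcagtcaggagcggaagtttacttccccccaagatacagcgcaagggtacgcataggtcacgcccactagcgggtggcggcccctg
Dlg1: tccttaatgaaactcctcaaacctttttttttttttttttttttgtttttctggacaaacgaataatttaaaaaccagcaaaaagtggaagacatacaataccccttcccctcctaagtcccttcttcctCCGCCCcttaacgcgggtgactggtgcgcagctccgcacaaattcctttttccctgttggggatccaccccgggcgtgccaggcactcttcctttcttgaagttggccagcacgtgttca
The Shank3 window was 82.4% G or C with 31 CpG dinucleotides and held 4 GC boxes, while the Dlgap1 window was 55.2% with 9 CpG and none, and the Dlg1 window 46.0% with 9 CpG and 1. Over all 32851 promoter windows of this length, the median GC content was 52.4% and 32.7% held a GC box. The full cAMP response element TGACGTCA, found in 1.55% of all windows, was in none of the 6. The E-box CACGTG, found in 6.02% of all windows, occurred once among the 6, in Dlg1. These matches are letters in a window and were not related to the counts.

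The libraries held between 28405795 and 35241743 counts, and each ELS library was deeper than each control library. Levels are given as CPM, counts relative to library size scaled with TMM factors that ran from 0.992 to 1.02. The 9 genes together took between 0.376% and 0.443% of the counts of a mouse. The cortical label was matched by Slc17a7, the vesicular glutamate transporter of cortical excitatory neurons, at 1481 to 1703 CPM. Control mouse 3 and ELS mouse 1 stood apart from the other 4 mice, with more RNA of striatal markers, and results are therefore also given without them.

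Shank1 had 933, 1040.3 and 776 CPM in control mice 1 to 3 against 720.5, 954 and 940.3 CPM in ELS mice 1 to 3. The lowest value of each group came from control mouse 3 and ELS mouse 1, and the groups overlapped over most of their range. Group means were 917 ± 133 CPM for controls and 872 ± 131 CPM for ELS (SD, n = 3 each). edgeR's quasi-likelihood test gave a log2 fold change of -0.073 (95% interval -0.32 to 0.18, adjusted p = 0.99998), and the interval runs from -20.2% to 13.3%.

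Shank2 had 239, 265 and 196 CPM in controls and 182, 234 and 243 CPM under ELS. Again control mouse 3 and ELS mouse 1 were the lowest and the groups overlapped. The quasi-likelihood log2 fold change was -0.085 (95% interval -0.34 to 0.17, adjusted p = 0.99998).

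Shank3, the gene of the Phelan-McDermid syndrome region, had 325, 372 and 300.5 CPM in controls and 276, 338 and 327 CPM under ELS. Control mouse 2 was the highest of the 6 and ELS mouse 1 the lowest. The log2 fold change was -0.085 (95% interval -0.29 to 0.12, adjusted p = 0.99998) in the same test, which places the change between -18.1% and 8.47%.

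Dlg1, whose product SAP97 takes part in the trafficking of AMPA receptors, was nearly constant. It had 259, 258 and 259.9 CPM in controls and 260.4, 256 and 257 CPM under ELS, and the highest mouse exceeded the lowest by a factor of 1.02. Its coefficient of variation (CV) over the 6 mice was 0.671%, below the 1.11% that counting error alone would give at this number of reads. Of the 13185 genes tested, 1 had a smaller CV, and the median CV was 7.76%. The log2 fold change was -0.0061 (95% interval -0.14 to 0.12, adjusted p = 0.99998). Its sign turned with upper-quartile factors (0.0050) and with library size alone (0.0048), so Dlg1 had no settled direction.

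Dlg2, which encodes PSD-93, had 583, 596 and 528 CPM in controls and 522, 577 and 589.8 CPM under ELS. Control mouse 3 and ELS mouse 1 were again the lowest pair. The log2 fold change was -0.015 (95% interval -0.17 to 0.14, adjusted p = 0.99998).

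Dlg3, on the X chromosome, encodes SAP102, a scaffold prominent in young synapses. It had 174, 168 and 157 CPM in controls and 162, 178 and 176 CPM under ELS. It had the most positive fold change of the 9 genes, a log2 value of 0.051 (95% interval -0.10 to 0.20, adjusted p = 0.99998), and the groups overlapped.

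Dlg4 encodes PSD-95, the most abundant scaffold of the mature postsynaptic density. It had 997, 1029 and 928 CPM in controls and 919, 981 and 1017 CPM under ELS. The means of 985 ± 51.7 and 972 ± 49.3 CPM (SD, n = 3 each) differed by less than either SD. The log2 fold change of -0.018 came with a 95% interval of -0.16 to 0.13, or -10.8% to 9.24% (adjusted p = 0.99998).

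Dlgap1 had 657, 648 and 573 CPM in controls and 582, 668 and 634 CPM under ELS. Its log2 fold change of 0.0038 (95% interval -0.16 to 0.17, adjusted p = 0.99998) was the closest to 0 of the 9. Dlgap2 had 80.0, 79.6 and 66.7 CPM in controls and 68.0, 78.8 and 73.6 CPM under ELS, with a log2 fold change of -0.039 (95% interval -0.22 to 0.15, adjusted p = 0.99998). In both genes control mouse 3 and ELS mouse 1 were the lowest pair.

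**Figure D1:**
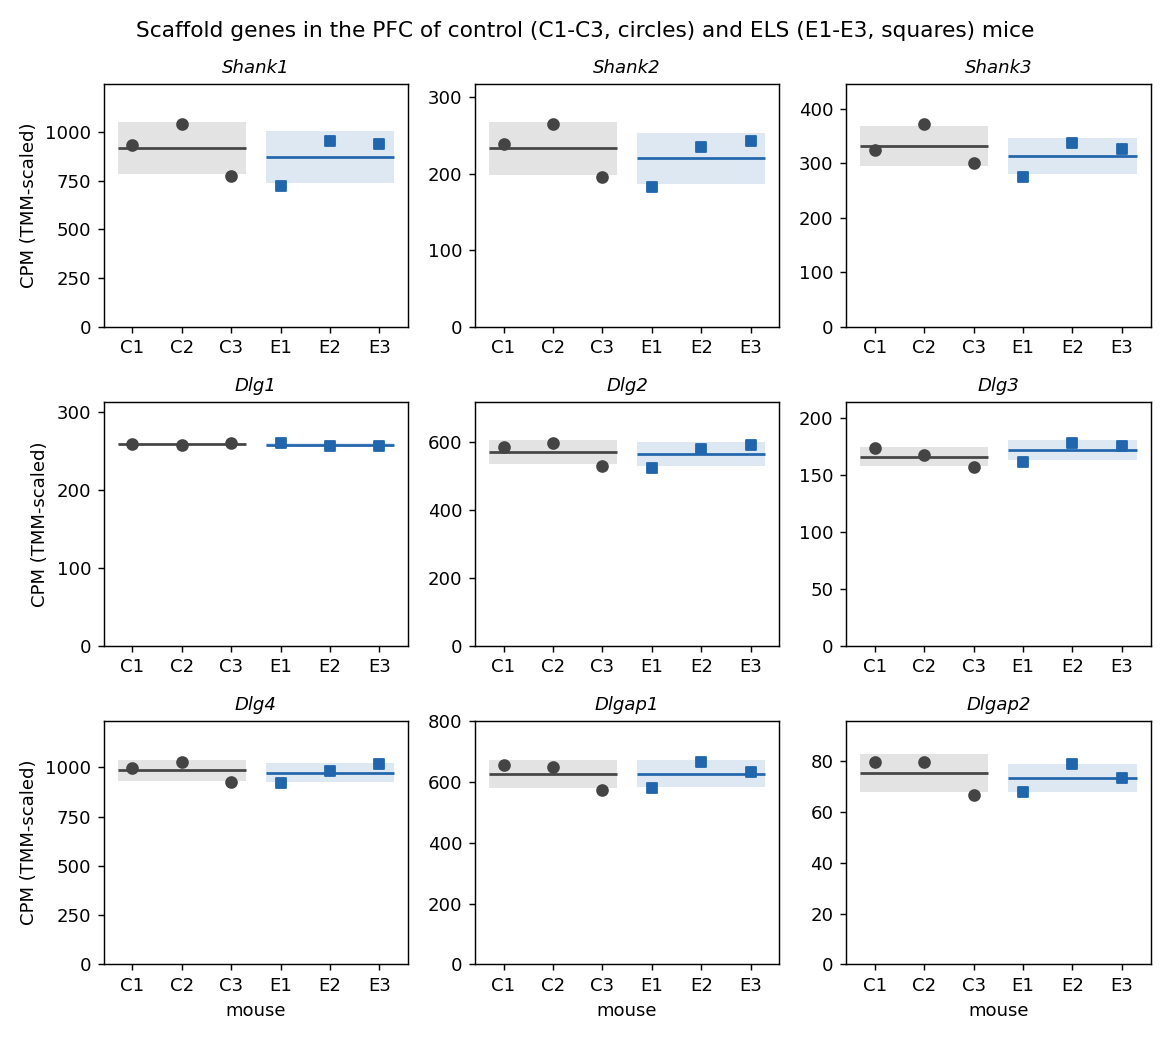
Level of each scaffold gene in each mouse, in CPM scaled with TMM factors on axes that start at 0, with control mice 1 to 3 (C1 to C3, circles) and ELS mice 1 to 3 (E1 to E3, squares); lines are group means and bands 1 SD (n = 3 each). The groups overlap in all 9 genes, C3 and E1 are the lowest pair in 8 of them, and Dlg1 is flat at 256 to 260.4 CPM.

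Genes were called when the quasi-likelihood test of edgeR gave an adjusted p under 0.05 with a log2 fold change beyond 0.3 in either direction. None of the 9 genes was called, against 0.0152% of all genes tested (2 of 13185). DESeq2 called 0 of the 9 as well, against 0.137% of all genes. An unadjusted p under 0.05 was reached by 0 of the 9, against 4.23% of all genes in that test, and the smallest unadjusted p among them was 0.378, for Shank3. In 0 of the 9 genes were the groups free of overlap, against 8.28% of all genes. At these shares of the whole table, a count of 0 among 9 genes does not set them apart.

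For 7 of the 9 genes the 95% interval lay wholly within a log2 change of 0.3 in either direction, and 61.4% of all genes tested had such an interval. The exceptions were Shank1 and Shank2, whose lower bounds of -0.32 and -0.34 passed that limit. The median log2 fold change of the 9 genes was -0.018 and that of all genes -0.0046. The largest absolute value, 0.085 for Shank3, exceeded that of 65.2% of all genes tested. Fold changes were below 0 for 7 genes and above 0 for Dlg3 and Dlgap1. When the level of striatal markers was a covariate, those of Shank1, Shank2, Dlg2, Dlg4 and Dlgap2 turned positive, at 0.0099, 0.00099, 0.022, 0.0099 and 0.018. That of Shank3 turned to 0.0035 without control mouse 2 and that of Dlgap1 to -0.058 without control mouse 3, so among the 9 genes Dlg3 alone kept its direction in every alternative run.

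**Figure D2:**
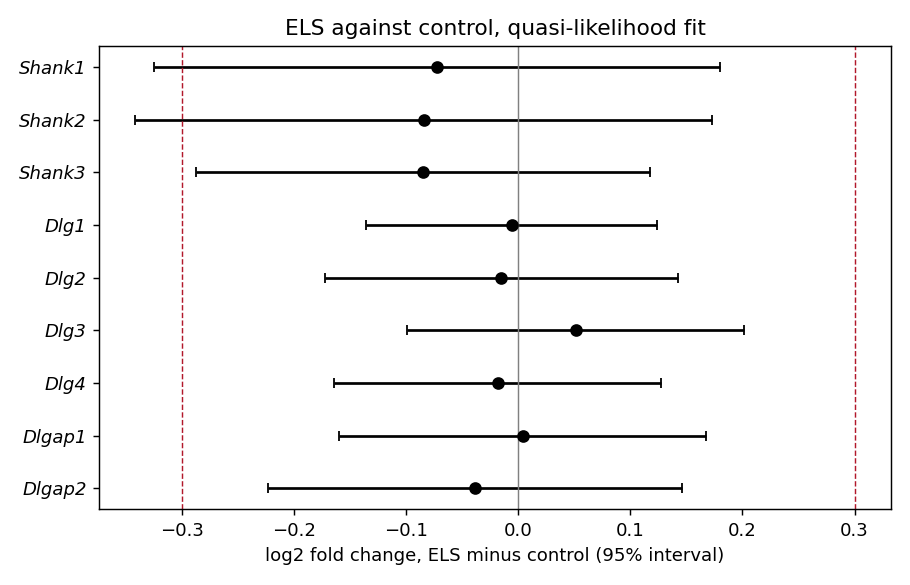
Log2 fold change of each scaffold gene, ELS minus control, from edgeR's quasi-likelihood fit, with bars for the 95% interval and dashed lines at an absolute value of 0.3. The 9 points lie between -0.085 and 0.051, every interval holds 0, and the Shank1 and Shank2 bars pass the dashed line on the left.

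Over all 6 mice, both groups together, Shank1 was 1.44 times as high in the highest mouse as in the lowest, Shank2 1.45 times and Shank3 1.35 times, with CVs of 13.5%, 13.8% and 10.2%. The ratio was 1.12 for Dlg4, 1.14 for Dlg2, 1.14 for Dlg3, 1.16 for Dlgap1 and 1.198 for Dlgap2. Control mouse 3 and ELS mouse 1 were the 2 lowest mice in 8 of the 9 genes, all except Dlg1, whereas 16.5% of all genes tested had this pair lowest. In Shank1, control mouse 3 lay 0.19 and ELS mouse 1 0.30 below the mean of the 6 mice on the log2(CPM + 1) scale, and control mouse 2 lay 0.23 above it.

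Across the 6 mice, the Shank genes followed each other, with a Pearson r of 0.992 between Shank1 and Shank2, 0.970 between Shank1 and Shank3 and 0.952 between Shank2 and Shank3. Shank2 and Dlg4 had an r of 0.983, Dlg2 and Dlg4 0.986 and Dlgap1 and Dlgap2 0.970. Of the 28 pairs that leave out Dlg1, 26 had an r above 0.7, and the lowest was 0.548 for Shank3 and Dlg3. These values describe 6 libraries, with control mouse 3 and ELS mouse 1 at the low end of every member but Dlg1. Dlg1 had r from -0.830 to -0.665 with the other members, but its differences between mice were within counting error.

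The same pair of mice had the most RNA of striatal markers. The summed level of the 8 striatal markers tested was 298, 327 and 557 CPM in control mice 1 to 3, against 541, 359.99 and 386 CPM in ELS mice 1 to 3. In 8 of 8 markers control mouse 3 and ELS mouse 1 were the highest pair, and none of these 8 was at 0. Adora2a, the adenosine receptor of striatopallidal neurons, had 17.8 and 18.8 CPM in these mice and 5.04 to 10.1 CPM in the others. The oligodendrocyte list gave them as the highest pair in 5 of 5 genes, with summed levels of 6576 and 5912 CPM against 5043 to 5532 CPM in the others. Blood markers had this pair highest in 4 of 5 genes, with summed levels of 85.2 and 79.7 CPM against 51.0 to 64.4 CPM. Summed levels of the 5 cortical excitatory markers were lowest in these mice, at 1901 and 1940.2 CPM against 2002 to 2186 CPM, though they were the lowest pair in only 2 of the 5 genes. By the same order, inhibitory markers summed to 848 and 824 CPM against 791 to 839, astrocyte markers to 1475 and 1403 CPM against 1276 to 1446, and microglial markers to 261 and 269 CPM against 255 to 274. Over the top quartile of genes by exon length, the median log2 deviation was -0.075 in control mouse 3 and -0.052 in ELS mouse 1. The others had -0.0037 to 0.059. Over the bottom quartile it was 0.086 and 0.033, against -0.052 to 0.020 in the others, the highest of them ELS mouse 3. The part that tissue makeup or transcript length had in the level of the scaffold genes was not tested, and in bulk tissue fewer cells of a type and less RNA per cell cannot be told apart.

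**Figure D3:**
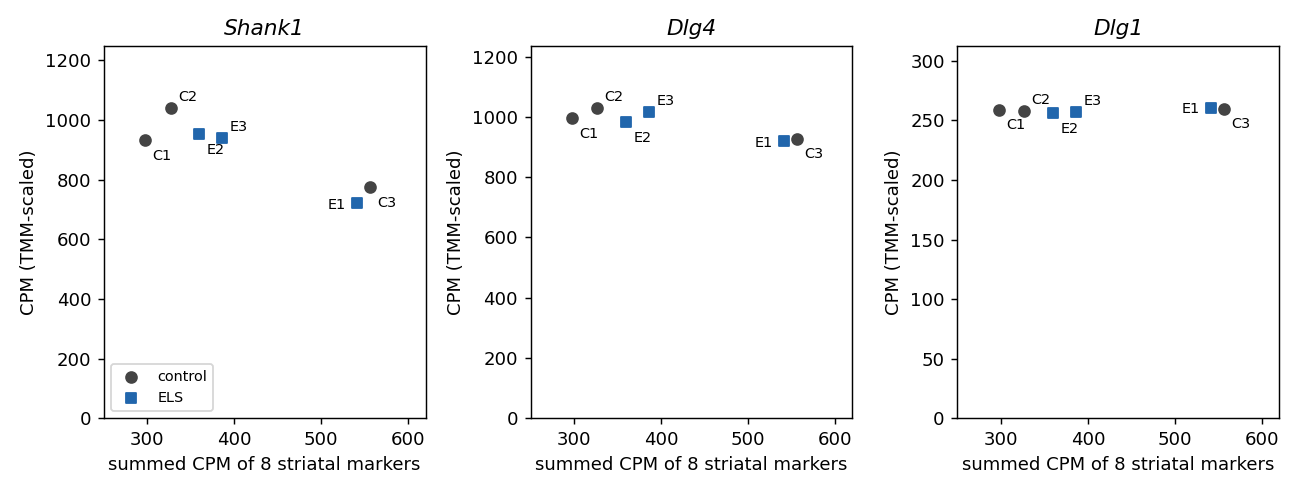
Level of Shank1, Dlg4 and Dlg1 (CPM, vertical axes from 0) in each mouse against the summed CPM of 8 striatal marker genes, with control mice as circles (C1 to C3) and ELS mice as squares (E1 to E3). C3 and E1 lie apart at 557 and 541 CPM of striatal markers, where Shank1 is at 776 and 720.5 CPM against 933 to 1040.3 in the other mice, while Dlg1 is level.

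Without control mouse 3 and ELS mouse 1, which leaves 2 mice a group, 0 of the 9 genes were called. The log2 fold change of Dlgap2 was then -0.064, against -0.039 with all mice. Shank1 then had a log2 fold change of -0.057 with a standard error of 0.0635, against 0.116 with all mice, and Shank2 -0.075 with a standard error of 0.0659, against 0.119. The values were -0.067 for Shank3, -0.018 for Dlg4 and 0.056 for Dlg3, with adjusted p of 0.825, 0.957 and 0.842 in edgeR's quasi-likelihood test. With the striatal covariate in place of leaving mice out, the standard error of Shank1 was 0.0571 and its fold change 0.0099. Over all genes, 2 were called with all mice, 27 without the pair and 32 with the covariate, and none of these calls was a scaffold gene.

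**Figure D4:**
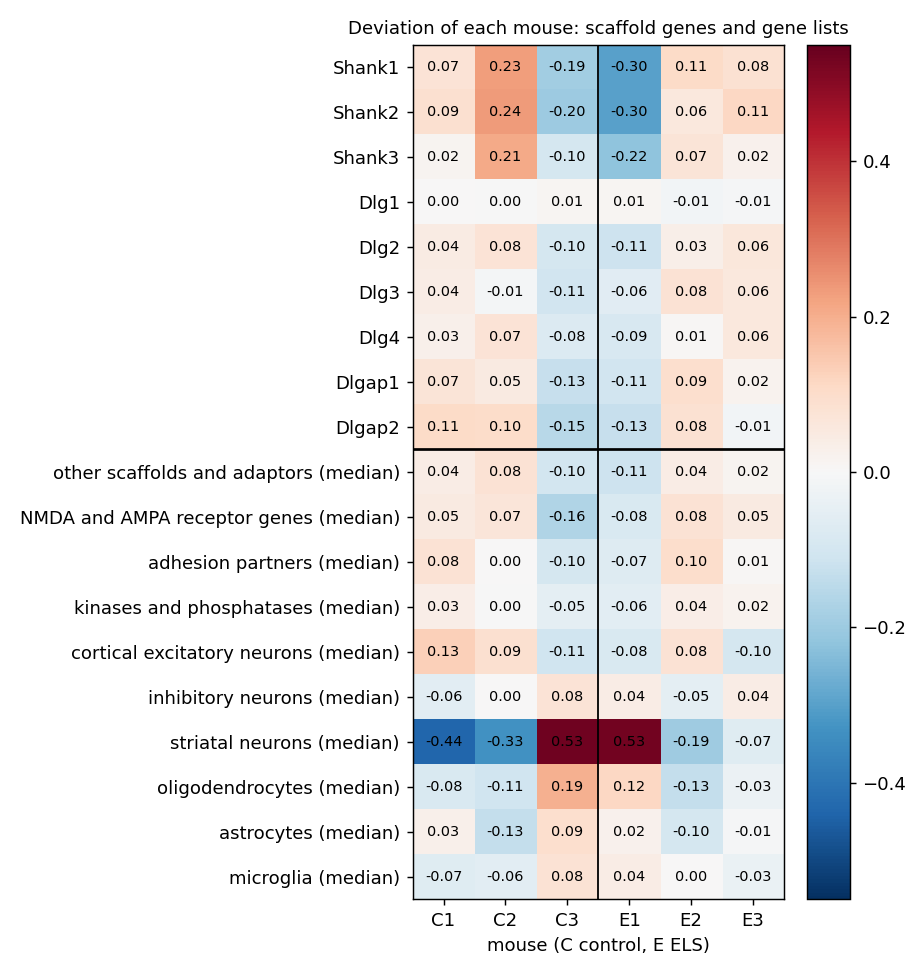
Deviation of each mouse from the mean of the 6 mice on the log2(CPM + 1) scale, for the 9 scaffold genes (above the line) and as the median over each gene list (below it), with control mice C1 to C3 and ELS mice E1 to E3. Blue in C3 and E1 for 8 scaffold genes and the synaptic lists stands beside red for striatal (0.53 in both) and oligodendrocyte markers (0.19 and 0.12); blood markers, not drawn, were at 0.34 and 0.22.

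Levels of different genes were compared only per length, as RPKM over the union of annotated exons. Over the 6 mice, Shank1 had 85.0 ± 11.5 RPKM and Dlg4 73.9 ± 3.45 RPKM (SD, n = 6), and their ranges overlapped. Shank3, Dlgap1 and Dlg2 followed at 35.1 ± 3.57, 35.1 ± 2.24 and 34.8 ± 1.99 RPKM and were not separated by their spread. Dlg3 had 28.9 ± 1.44 RPKM, above Dlg1 at 24.1 ± 0.162 RPKM in all 6 mice. Dlg1 and Shank2 (21.04 ± 2.89 RPKM) overlapped, and Dlgap2 was the lowest at 12.1 ± 0.973 RPKM, below Shank2 in all 6 mice. The order depended on the length used. Over the longest annotated transcript, Dlg4 came first with 155 ± 7.22 RPKM, then Shank1 with 91.0 ± 12.3, Dlgap1 with 87.4 ± 5.59 and Dlg2 with 72.4 ± 4.16 RPKM, where Shank1 and Dlgap1 were not separated by their spread. Dlgap2 remained the lowest, at 16.5 ± 1.33 RPKM. Annotated isoforms of Dlg4 and Dlgap1 add many exon bases (13251 and 17890 in the union against 6326 and 7173 in the longest transcript), and gene counts do not show which isoforms the reads came from.

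**Figure D5:**
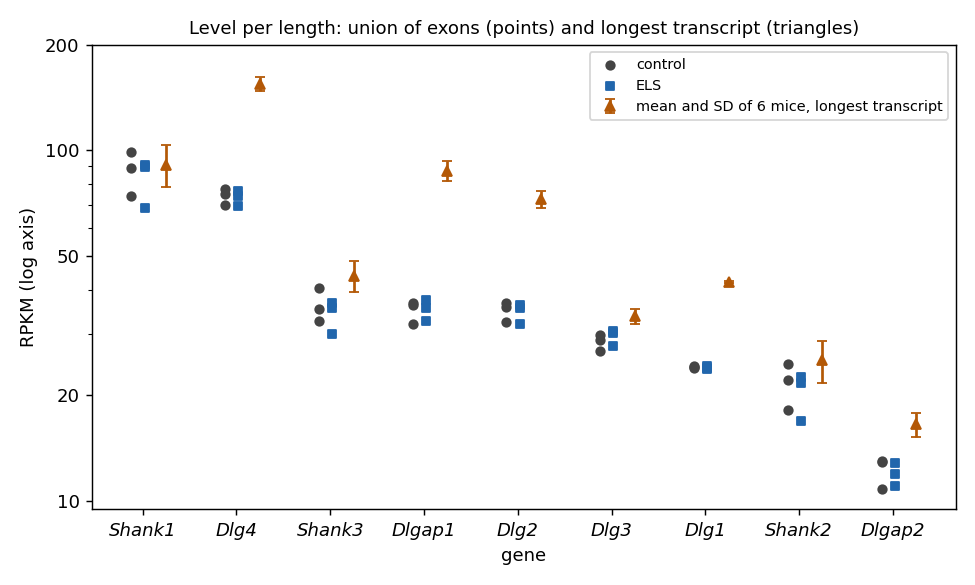
Level per length of the 9 scaffold genes in RPKM on a log axis, over the union of exons for each control mouse (circles) and ELS mouse (squares), and as mean and SD of the 6 mice over the longest transcript (triangles). Dlgap2 has the lowest mean by either length, the triangles of Shank1 and Dlgap1 lie within their SDs of each other, and control and ELS mice overlap in each gene.

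As a share of the summed Shank RPKM (union of exons), Shank1 took between 59.2% and 60.8% in every mouse, Shank3 between 24.1% and 26.2% and Shank2 between 14.6% and 15.3%. The Shank1 share averaged 60.1% ± 0.761 in controls and 60.3% ± 0.79 under ELS (SD, n = 3 each), so this share was level although the Shank1 level itself varied by a factor of 1.44. Shank3 had its largest shares, 26.2% and 26.0%, in control mouse 3 and ELS mouse 1. Dlg4 took 45.2% to 46.5% of the summed Dlg RPKM, Dlg2 20.9% to 21.9%, Dlg3 17.2% to 18.6% and Dlg1 14.3% to 15.8%. The Dlg3 share was 18.0%, 17.2% and 17.5% in control mice and 18.1%, 18.6% and 18.0% in ELS mice, and the groups just missed overlapping, by 18.016% against 18.028%. None of the other 8 shares was free of overlap, and in CPM 8.28% of all genes tested were. Dlgap1 took 73.7% to 74.8% of the summed Dlgap1 and Dlgap2 RPKM.

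The partners of these scaffolds were described with lists of other genes of the postsynaptic density. Among 27 other scaffolds and adaptors, 0 were called in either direction, with 12 log2 fold changes above 0, 15 below, and a median of -0.013. Homer1, the Shank-binding adaptor, had a log2 fold change of -0.035. Dlgap3, the GKAP gene known for its role in the striatum, had 406 to 506 CPM and a log2 fold change of -0.028, Dlgap4 had -0.016 and Lrrc7 (densin) -0.037. Iqsec1 and Grip2, each with a log2 fold change of -0.15, had the smallest unadjusted p of this list by edgeR's quasi-likelihood test, 0.11 and 0.189. Control mouse 3 and ELS mouse 1 were the lowest pair in 16 of these 27 genes.

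Of 14 genes of NMDA and AMPA receptors and their auxiliary subunits, 0 were called, 10 log2 fold changes were above 0 and 4 below, and the median was 0.038. Grin2b, the NMDA receptor subunit whose tail binds the PDZ domains of PSD-95, spread the most, with 254, 292 and 170 CPM in controls and 180.1, 321 and 291 CPM under ELS. Control mouse 3 and ELS mouse 1 were the lowest here too, and the log2 fold change of 0.15 had a 95% interval from -0.29 to 0.58. Grin2a ranged from 122 to 184 CPM, with a log2 fold change of 0.070, and Grin1, the obligatory subunit, had 0.026. Gria1 had a log2 fold change of 0.049 and Gria2, which sets the calcium permeability of AMPA receptors, 0.082 (unadjusted p = 0.246). Gria4 was at -0.075 (unadjusted p = 0.269).

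With all mice and no covariate, edgeR's quasi-likelihood test called 0 of 15 adhesion partners, with a list median log2 fold change of -0.0024. In that test 2 of them, Lrfn2 and Lrrtm2, had an unadjusted p below 0.05, against 4.23% of all genes tested. Both also had groups without overlap, against 8.28% of all genes. In the other partner lists 0 genes had an unadjusted p below 0.05 and 0 were called by DESeq2. Lrfn2 encodes SALM1, a synaptic adhesion molecule that binds PSD-95. It had 26.5, 27.3 and 27.0 CPM in controls and 20.4, 20.7 and 19.8 CPM under ELS, and the groups did not overlap. The log2 fold change was -0.41 (95% interval -0.57 to -0.25), and the adjusted p was 0.288 by quasi-likelihood in edgeR and 0.0134 in DESeq2, which called it. Over all alternatives the adjusted p ran from 0.00167 to 0.999 while the log2 fold change stayed between -0.43 and -0.39. Without control mouse 3 and ELS mouse 1 the values were 0.091 and -0.41. Both of these mice lay between the other mice of their groups. Lrrtm2, another postsynaptic adhesion molecule that binds PSD-95, had 139, 133 and 136 CPM in controls and 125, 125 and 118 CPM under ELS. Here too the groups did not overlap, with a log2 fold change of -0.15 and an unadjusted p of 0.0347 (adjusted p = 0.99998). The neuroligins, postsynaptic partners of neurexins, had log2 fold changes of 0.13 for Nlgn1 (unadjusted p = 0.0923), -0.016 for Nlgn2 and 0.0063 for Nlgn3.

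Among 12 kinases, phosphatases and their subunits, 0 were called, with a median log2 fold change of -0.013. Camk2a, the main kinase of the postsynaptic density, had 3992, 4203 and 3754 CPM in controls and 3402, 3878 and 4213 CPM under ELS, a log2 fold change of -0.056. Camk2b had -0.00021. Camk2d and Prkca, with log2 fold changes of 0.17 and 0.15, had the smallest unadjusted p of this list by edgeR's quasi-likelihood test, 0.0785 and 0.166.

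The gene whose pattern over the 6 mice was most like that of a member was found among the genes with a mean of at least 10 CPM, by Pearson r of log2(CPM + 1). For Shank1 and Shank2 it was Atp13a2, a lysosomal ATPase gene, with r of 0.995 and 0.996. Hcn2, a hyperpolarization-activated channel gene, was nearest to Shank3 (0.996), Gabbr2, a GABA-B receptor subunit gene, to Dlgap1 (0.999), and Ago2, an Argonaute gene, to Dlgap2 (0.998). Nptxr, the neuronal pentraxin receptor gene, was nearest to Dlg3 (0.992), Sgsm2 to Dlg4 (0.994), and AC161792.1 to Dlg2 (0.997). For Dlg1 the rule named the co-chaperone gene Stip1 (0.997), but the differences of Dlg1 between mice were within counting error, so this likeness is not interpretable. Each of these is the highest of 10082 candidates over 6 mice. The number of genes with an r above 0.95 ran from 55 for Dlg3 to 279 for Dlgap2 among the members other than Dlg1, for which it was 15.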

How the data were processed

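PFC RNA of 3 control and 3 ELS mice was sequenced as paired reads. After trimming (Trimmomatic) and alignment to mm10 (STAR, 2.7.1a in the submitters' processing notes and another version in the study's methods), the authors deposited raw counts of uniquely mapped reads per gene symbol from HTSeq 0.9.1, neither normalized nor pooled. The annotation release and strand setting are not given in the sources used here, and the library kit differs between the labels (TruSeq Stranded) and the methods (KAPA Stranded). ELS columns carry the abbreviation of social isolation and were matched by it and their number.

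A gene was tested if every mouse of either group reached 1 CPM. Counts were fitted in R 4.3.3 with edgeR 4.0.16 (TMM factors, quasi-likelihood test, condition as the only term) over all genes, with Benjamini-Hochberg adjustment over the 13185 genes tested, and DESeq2 1.42.0 and limma 3.58.1 as alternatives. Standard errors come from the F statistic, and intervals are 95% from its degrees of freedom. RPKM divides TMM-scaled CPM by exon length from GENCODE M21. At 28405795 to 35241743 counts per mouse, there were 3 mice per group, and mice of a group differed by more than sampling noise over all genes (chi-square per degree of freedom of at least 6.25). The smallest p of an exact permutation test over these mice is 0.1. The tests were checked on simulated counts. Alternatives were other tests, scalings and gene filters, a replicate block, a striatal marker covariate and leaving out each mouse; leaving out control mouse 3 and ELS mouse 1 together, and DESeq2 without its filters, were added after seeing the data.

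Members and lists were chosen with earlier results of these data known. Named are the members, a set of partners fixed by hand (1 of them is not reported here), the 2 partners of each list with the smallest unadjusted p, and the gene most correlated with each member. Dlg1's small CV, the Adora2a level and the Dlg3 share were singled out after their values were seen. Of the marker lists, blood, endothelium and choroid plexus were also summed. Blood ran from 51.0 to 85.2 CPM and endothelium from 132 to 173 CPM. Choroid plexus, over the 2 of its 5 genes that were tested, had 2.63, 2.62 and 2.65 CPM in control mice 1 to 3. In ELS mice 1 to 3 it had 3.48, 3.95 and 3.13 CPM. Kcnj13, 1 of these 2 genes, had 0.715 CPM in control mouse 1 and passed the filter only through the ELS mice. The other, Kl, overlapped between the groups. The choroid plexus sums are therefore not read as a difference between the groups. Of the striatal list, 8 of 9 markers were analysed.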

Additional observations from a re-analysis of the deposited data

How the results depend on the processing

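No scaffold gene was called under any alternative run. Partner genes called were 0 in the quasi-likelihood fit and 1, Lrfn2, with DESeq2 (1 also without its filters), the likelihood ratio test and the striatal covariate, and ran from 0 to 1 with a mouse left out (1 without control mouse 3). All genes called were 2 in that fit, 18 with DESeq2 by default and without its filters, 28 by likelihood ratio, 4 when any gene with a read was tested, 7 with the replicate block, 32 with the striatal covariate, 27 without control mouse 3 and ELS mouse 1, and 1 to 29 with a mouse left out (29 without control mouse 3); the cause was not tested. The sign of the fold change turned in at least 1 alternative for every scaffold gene but Dlg3. With the striatal covariate, log2 values of Shank1, Shank2, Dlg2, Dlg4 and Dlgap2 turned to 0.0099, 0.00099, 0.022, 0.0099 and 0.018. That of Dlg1 turned to 0.0050 with upper-quartile factors and 0.0048 with library size only, and that of Dlgap1 to -0.0016 without control mouse 3 and ELS mouse 1, an alternative chosen after seeing the data. With a mouse left out the values ran from -0.18 to 0.045 for Shank1, -0.20 to 0.032 for Shank2, -0.15 to 0.0035 for Shank3, -0.068 to 0.034 for Dlg2, -0.061 to 0.019 for Dlg4, -0.058 to 0.054 for Dlgap1 and -0.12 to 0.012 for Dlgap2; Dlg1 and Dlg3 kept their sign. The labels give both groups numbers 1 to 3 for different animals. Same-numbered mice had correlations of -0.164, 0.258 and -0.036 of their deviations, so the numbers were not taken as pairs; the replicate block called 7 genes and no scaffold gene. Depth was not varied among the alternatives.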
